A study of Mus musculus with 10 samples.

Results

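Somatotropes are the pituitary cells that secrete growth hormone (GH). Here they were selected without growth hormone RNA, as droplet barcodes with UMIs (unique molecular identifiers, counted molecules) of at least 2 of the 5 genes Ghrhr, Dlk1, Kcnk2, Pappa2 and Rgs13 and no UMI of Pcsk2, Oacyl, Gnrhr, Crhr1, Avpr1b, C1qa or C1qb, the 7 exclusion genes. These barcodes, called members below, numbered 898 of the 22325 barcodes kept from all 10 libraries, or 4.02%. All mice were CD1. The 10X Genomics libraries came from 1 wild-type (WT) 8-week female and 1 WT 8-week male. The 8 Drop-seq libraries, made by capturing cells with barcoded beads in droplets, came from WT 8-week females (n = 2) and males (n = 2), mt/hGRF 8-week females (n = 1), a WT 13-week virgin female (n = 1) and WT 13-week lactating females (n = 2). The mt/hGRF mice carry human growth hormone releasing hormone under a metallothionein promoter. Per the study, the mt/hGRF library pooled 2 mice, as did each 8-week WT Drop-seq library and lactating replicate 2. Another passage of the study gives other mouse numbers for the 8-week WT and mt/hGRF Drop-seq cells. The labels leave the physiological condition of the 8-week mice undetermined, and the study describes its 8-week WT mice as sexually naive on both platforms and the mt/hGRF females as virgin.

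Somatotropes arise in the lineage that depends on the transcription factor POU1F1, together with lactotropes, which make prolactin, and thyrotropes. Growth hormone releasing hormone from the hypothalamus binds its receptor on the somatotrope and raises cyclic AMP, which drives secretion of the hormone and growth of the cell population, while somatostatin opposes it. Growth hormone acts in large part through insulin-like growth factor 1 (IGF1), and free IGF1 is set by binding proteins and by the proteases that cleave them.

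The 5 markers have separate roles. Ghrhr (mm10 chr6:55376295-55388530, plus strand) encodes the receptor for growth hormone releasing hormone, and Dlk1 (chr12:109452823-109463336, plus strand) an imprinted transmembrane protein related to the Notch ligands. Kcnk2 (chr1:189207930-189402273, minus strand) encodes a leak potassium channel and Pappa2 (chr1:158711727-158980490, minus strand) a protease that cleaves IGF-binding proteins. Rgs13 (chr1:144138654-144177372, minus strand) encodes a regulator of G protein signaling. Spans are those of GENCODE vM21 on the same assembly.

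The gate took a far larger share of the 10X Genomics barcodes than of the Drop-seq barcodes. It held 233 of 1621 kept barcodes in the 10X Genomics female (14.4%, with exact 95% binomial limits of 12.7% and 16.2%). It held 396 of 1610 in the 10X Genomics male (24.6%, limits 22.5% and 26.8%), against 0.781% to 2.68% of the Drop-seq libraries. The Drop-seq members numbered 8 and 30 in the WT 8-week females (replicates 2 and 3), 16 and 52 in the males, 49 in the mt/hGRF library, 40 in the virgin and 33 and 41 in the lactating libraries. Limits of this kind cover counting error only. All kept barcodes of a library held 798791 to 4960260 UMIs. The UMIs summed over members ranged from 10015 (female replicate 2) to 570850 (10X Genomics male), and no barcode sequence of a member occurred among the members of another library of the same platform.

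The platforms also differed in the markers by which members entered. On the 10X Genomics platform Dlk1 was present in 97.8% of members, Kcnk2 in 77.1%, Ghrhr in 41.2% and Pappa2 in 10.3%. In the Drop-seq libraries together Ghrhr was present in 86.2% of members, Kcnk2 in 58.7%, Pappa2 in 55.0% and Dlk1 in 7.06%. Dlk1 with Kcnk2 was the commonest set among 10X Genomics members (326 of 629, 51.8%), and Ghrhr with Kcnk2 (105 of 269) and Ghrhr with Pappa2 (100 of 269) were the commonest among Drop-seq members. Rgs13 had a UMI in 1 member only, from the 10X Genomics male, so in practice the other 4 markers made the choice.

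**Figure D1:**
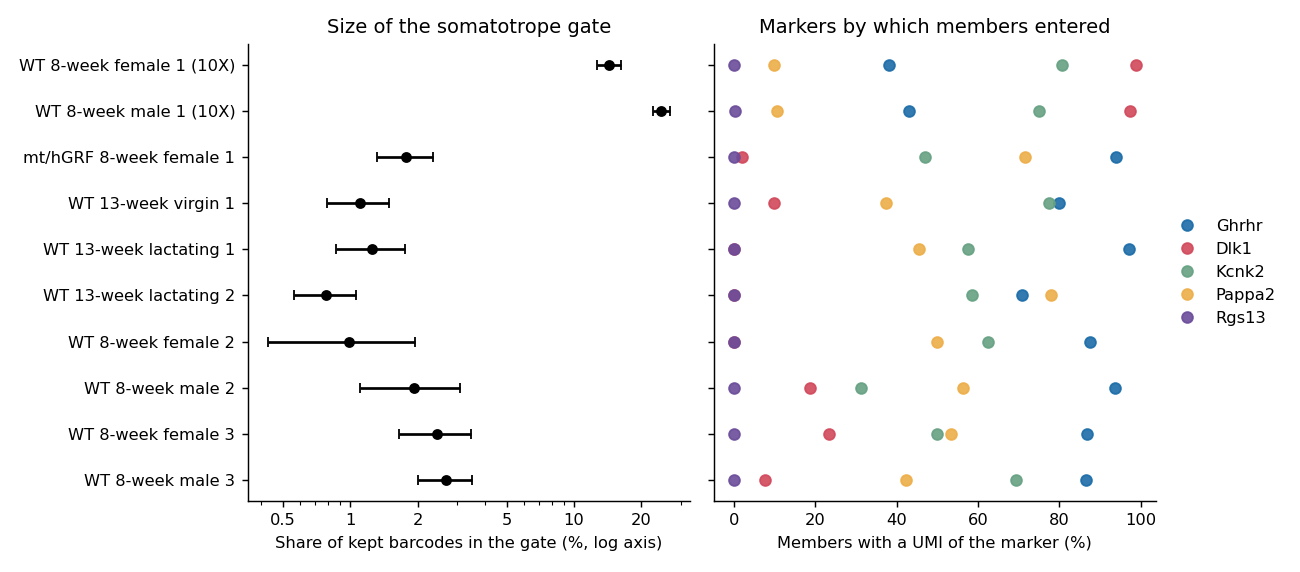
Share of kept barcodes in the somatotrope gate (left, percent on a log axis, bars are exact 95% binomial intervals) and percentage of members with a UMI of each marker (right), for the 10 libraries. The 10X Genomics libraries sit at 14.4% and 24.6% and all Drop-seq libraries at or below 2.68%, and Dlk1 leads only on the 10X Genomics platform.

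Dlk1 was spread far more widely over the 10X Genomics barcodes. It had a UMI in 63.5% and 67.1% of all kept barcodes of the 10X Genomics libraries, at 13.5 and 19 UMIs per 10000 UMIs, and in 16.9% and 11.3% of their macrophage barcodes, which should lack it. In the Drop-seq libraries it had a UMI in at most 1.55% of kept barcodes and in 0% of macrophages. Macrophage barcodes rarely reached 2 of the 5 markers. With the exclusion genes not applied, 1 of 124 did so in the 10X Genomics libraries (0.806%, exact 95% limits 0.0204% and 4.41%) and 2 of 753 in the Drop-seq libraries (0.266%, limits 0.0322% and 0.956%). Red blood cell barcodes are few, and 2 of 8 reached 2 markers in the 10X Genomics libraries (25.0%, limits 3.19% and 65.1%) and 0 of 260 in the Drop-seq libraries (upper limit 1.41%). On the same terms 1014 of 3231 and 362 of 19094 kept barcodes reached 2 markers, or 31.4% and 1.90%.

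The exclusion genes removed 478 of the 1376 barcodes with at least 2 markers. Of the 1376, Pcsk2, a prohormone convertase that melanotropes use, had a UMI in 415 (30.2%). Oacyl had one in 122 and Gnrhr, the receptor for gonadotropin releasing hormone, in 61, while each of the 4 other genes had one in at most 16. For Pcsk2 the share was 34.2% on the 10X Genomics platform, against 26.1% and 30.1% of all kept barcodes of its libraries. By Drop-seq it was 18.8%, against 7.26% to 19.4% of all kept barcodes. These shares do not show how many of the barcodes removed were melanotropes. A second set of barcodes was chosen in the same way for lactotropes, with UMIs of at least 2 of Hmcn1, Lrp1b, Ccdc148, Edil3 and Gria2 and none of the exclusion genes. Of the members, 95 (10.6%) also met the lactotrope gate, 83 of them on the 10X Genomics platform. They were kept as members and left out of the lactotrope gate.

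At the boundary of the rule, barcodes with exactly 1 of the 5 markers had 524 Gh UMIs per 10000 in the 10X Genomics female and 2412 in the male, those with exactly 2 had 1112 and 2459, and those with 3 or more had 1064 and 3342. By Drop-seq, barcodes with 1 marker ranged from 1145 to 1987 and those with 2 from 1177 to 2525. Within libraries, all members together held more Gh than the barcodes with 1 marker in 7 of 10, with a median of 1.27-fold and a range of 0.90 to 2.10-fold. In male replicate 2, members (1672) lay below all other kept barcodes (1772). Only 172 members had 3 or more markers, 154 of them on the 10X Genomics platform.

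Each marker was also examined in barcodes that the other 4 had selected, so that it took no part in the choice. The 5 markers were themselves chosen with earlier results of these data known. On the 10X Genomics platform, 4 of the 5 markers were higher in such barcodes than in all other kept barcodes of the same library. Left out of the gate, Ghrhr stood at 2.31 against 0.822 UMIs per 10000 in the female and 2.18 against 1.45 in the male. Kcnk2 stood at 5.90 against 2.06 and 4.59 against 3.25, Dlk1 at 24.2 against 13.1 and 26.5 against 18.4, and Pappa2 at 0.589 against 0.167 and 0.546 against 0.368.

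Over all 10 libraries none of the 5 differences passed the exact sign-flip permutation test on the log2 ratios (two-sided, Benjamini-Hochberg over 5 markers). Ghrhr had a mean log2 ratio of 0.53 ± 0.81 (SD, n = 10, higher in 6 of 10, exact adjusted p = 0.298) and Pappa2 one of 0.59 ± 1.05 (higher in 7 of 10, exact adjusted p = 0.298). Kcnk2 had 0.10 ± 1.04 and Dlk1 0.07 ± 0.62, both with an exact adjusted p = 0.762. The reduced gates of the Drop-seq libraries held as few as 1 barcode for Ghrhr and 3 for Kcnk2, and their log2 ratios for Ghrhr ran from -0.39 to 2.13. In lactating replicate 1, female replicate 2 and male replicate 2 no marker had a UMI in its reduced gate. Those ratios rest on the pseudocount of 0.5 UMIs. Rgs13 had 0 UMIs in all reduced gates and a ratio other than 0 in only 2 libraries, so its test could not pass. For these reasons the test cannot tell equal levels from too few UMIs. Against the lactotrope gate instead of all other barcodes, Ghrhr (mean log2 ratio 1.78, higher in 7 of 10) and Pappa2 (1.93, higher in 7 of 10) were higher, each with an exact adjusted p = 0.0391. Kcnk2 (0.58, higher in 7 of 10, exact adjusted p = 0.335) and Dlk1 (0.28, higher in 4 of 10, exact adjusted p = 0.469) did not pass in that comparison.

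Growth hormone RNA, which the gate did not use, set the members apart from the lactotrope gate in every library. The markers of both gates were chosen with earlier results of these data known. The differences in Gh and Prl between the gates are therefore not independent evidence. Gh (chr11:106300271-106301865, minus strand) stood at 1098 UMIs per 10000 in the 10X Genomics female and 2755 in the male. By Drop-seq it stood at 1788 and 1711 in the WT 8-week females (replicates 2 and 3), 1672 and 1122 in the males, 2293 in the mt/hGRF library, 2452 in the virgin and 1487 and 2882 in the lactating libraries. In the lactotrope gate the lowest value was 203, in the 10X Genomics female, and the highest 937, in female replicate 2, so the ranges of the gates did not overlap. Gh was higher in members in 10 of 10 libraries, with a median of 4.87-fold and a range of 1.91 to 10.8-fold (exact sign-flip permutation test, two-sided, adjusted p = 0.00391 over 4 genes, from the smallest p that 10 libraries allow, 0.00195).

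Prolactin RNA moved the other way. Prl was lower in members than in the lactotrope gate in 10 of 10 libraries, with a median ratio of 0.264 and a range of 0.046 to 0.530 (exact sign-flip permutation test, adjusted p = 0.00391). Members of the 13-week libraries still held 380 to 636 Prl UMIs per 10000, while those of the 3 male libraries held 36.7 to 48.0. Pomc, the precursor of corticotropin and melanotropin, had a median ratio of 0.954 (adjusted p = 0.316 by the same exact test). Pou1f1 was lower in members in 8 of 10 libraries, with a median ratio of 0.664 (exact adjusted p = 0.0156).

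Free RNA can give hormone UMIs to cells that do not make the hormone, and macrophage barcodes were taken as a gauge of it. Gh in macrophage barcodes ranged from 32.8 (female replicate 3) to 514 (male replicate 2) UMIs per 10000, and members exceeded it in 10 of 10 libraries, by 3.25 to 51.9-fold. The excess of Prl over macrophages was smaller, with a median of 1.94-fold, and in lactating replicate 1 members (380) lay below macrophages (399). Pomc exceeded macrophages in 8 of 10 libraries. Prl and Pomc levels in members may include free RNA, and its part in them was not tested.

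**Figure D2:**
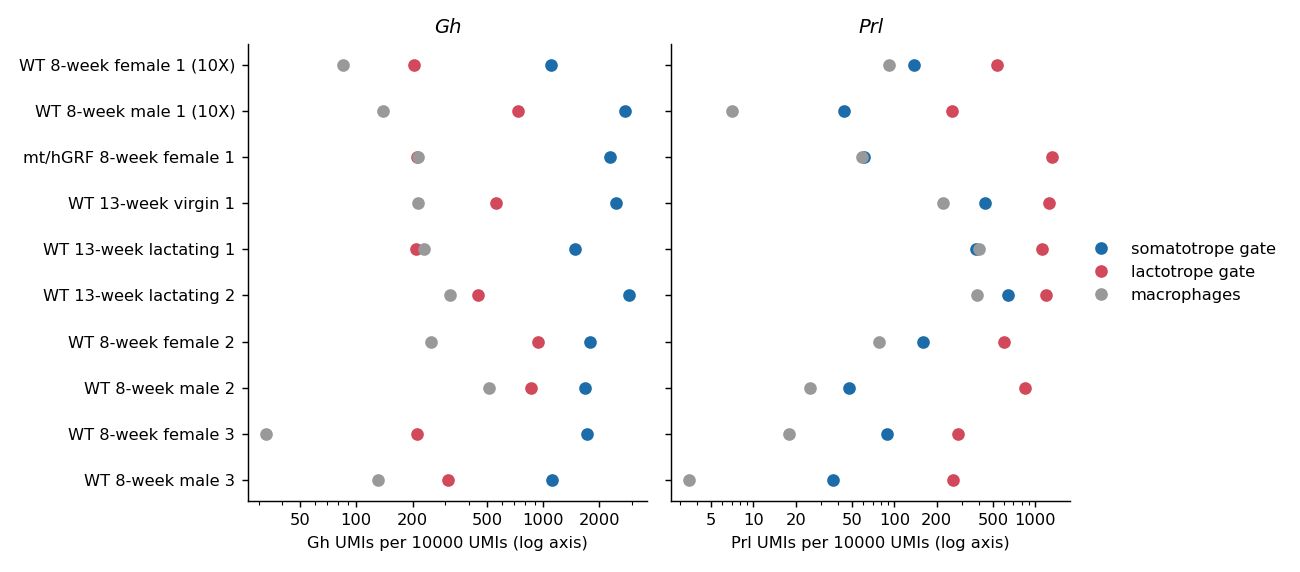
UMIs of Gh (left) and Prl (right) per 10000 UMIs, on log axes, in the somatotrope gate, the lactotrope gate and macrophage barcodes of each library. Gh is highest in the somatotrope gate in all 10 libraries, from 1098 to 2882, and Prl is highest in the lactotrope gate in all 10.

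Single members varied widely in Gh. The median member held between 805 (male replicate 3) and 1799 (virgin) Gh UMIs per 10000, and the share above 1000 ran from 33.3% (female replicate 3) to 87.5% (female replicate 2). No member lacked a Gh UMI. Of the 898 members, 138 (15.4%) lay at or below the 95th percentile of the macrophages of their own library, 12.4% of the 10X Genomics members and 22.3% of the Drop-seq members. By library this share ran from 3.33% (female replicate 3) to 62.5% (male replicate 2). The 326 members of the 10X Genomics libraries that entered by Dlk1 with Kcnk2 had a median of 1148 and a 10th percentile of 243, and the 117 that entered by Ghrhr with Dlk1 a median of 1659 and a 10th percentile of 827.

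Markers of most other cell types were lower in members than in the other barcodes. The 7 macrophage markers, without those of the gate, summed to 0 to 0.745 UMIs per 10000 in members against 4.59 to 20.5 in all other barcodes, and Csf1r was at 0. The 7 endothelial markers summed to 0 to 0.758 against 0.177 to 0.659, lower in 8 of 10 libraries, with Flt1 at 0, and 5 of 6 T and NK cell markers were at 0. Gonadotrope markers (3 genes) summed to 0 to 1.47 against 0.418 to 8.50, and thyrotrope markers (3 genes) to 0.218 to 5.32 against 1.00 to 2.96. Stem and supporting cell markers (7 genes, all detected) ranged from 0 (female replicate 2) to 10.0 (male replicate 2) in members and from 0.616 to 3.16 in other barcodes. These stem and supporting cell genes were above the other barcodes in 6 of 10 libraries. Red blood cell genes (5 genes) summed to 1.73 to 115 in members against 86.0 to 639, and Pomc, Tbx19 and Pax7 of corticotropes and melanotropes to 36.4 to 237 against 156 to 774, both lower in 10 of 10 libraries. The macrophage, gonadotrope, corticotrope and melanotrope sums follow in part from the rule, since the exclusion genes remove such barcodes, and are given as a description.

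Drop-seq members were also deeper than the barcodes around them, with medians of 950 to 1282 UMIs against 531 to 813, whereas on the 10X Genomics platform the medians were 1223 against 1242 and 971.5 against 970. When each barcode was thinned to 300 UMIs and gated again, 202 barcodes met the gate in the 10X Genomics libraries (4.76% and 7.79% of the barcodes). In the Drop-seq libraries 46 met it (0.114% to 0.515%). A barcode could lose its UMI of an exclusion gene in the thinning and enter, so these need not all be members.

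To describe what else separated members from their nearest neighbors of the POU1F1 lineage, UMIs were summed per library and gate and tested with library as a block in the 8 libraries with at least 20 barcodes in each gate (edgeR quasi-likelihood test, Benjamini-Hochberg adjustment). Of 3460 genes tested, 449 (13.0%) passed an adjusted p of 0.05, 225 higher and 224 lower in members. The genes of both gates and the exclusion genes were not tested. Of those called, 193 moved the same way in all 8 libraries. Without the 10X Genomics female the count was 267 and without the 10X Genomics male 293, and with the Drop-seq libraries only it was 157, of which 154 were among the 449.

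The genes with the largest rise, among those with a mean of 1 UMI per 10000 or more in either gate and higher in 8 of 8 libraries, are given with their levels. Grb10, an imprinted adaptor that dampens insulin and IGF1 receptor signaling, had a median of 1.10 UMIs per 10000 in members (range 0.665 to 1.42) and 0.10 in the lactotrope gate (0 to 0.273), a 9.37-fold difference (log2 3.23 ± 0.36 SE, edgeR adjusted p = 3.16e-07). The ranges of the gates did not overlap. Homer2, a scaffold protein of signaling complexes, was 8.35-fold higher (median 0.911 against 0.035, adjusted p = 4.64e-06). Atp2b4, a plasma membrane calcium pump, was 7.14-fold higher (0.919 against 0.137) and Sytl4, or granuphilin, which docks secretory granules at the plasma membrane, 4.80-fold higher (0.993 against 0.295).

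Neb, which encodes the giant actin-binding protein nebulin of muscle, was 6.13-fold higher, with a median of 3.42 in members against 0.617. Dapl1 was 7.28-fold higher (0.978 against 0.210) and Nr3c1, the glucocorticoid receptor, 4.42-fold higher (1.05 against 0.298, edgeR adjusted p = 1.61e-05). In this fit Gh was 5.82-fold higher (log2 2.54 ± 0.15 SE, edgeR adjusted p = 7.36e-13). All 8 genes kept their direction in every alternative in which they were tested. The call held in 15 of 16 alternatives for Grb10, Homer2, Sytl4 and Nr3c1. It held in every one tested for Dapl1, Atp2b4, Neb and Gh.

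The genes with the largest fall were chosen by the same rule. Gabra2, a subunit of the GABA-A receptor, had a median of 0.067 UMIs per 10000 in members (0 to 0.231) and 1.08 in the lactotrope gate (0.563 to 1.65), an 8.74-fold difference (log2 -3.13 ± 0.35 SE, edgeR adjusted p = 2.93e-07). Angpt1, the ligand angiopoietin 1, was 6.72-fold lower (0.268 against 1.41). Prl was 4.38-fold lower (log2 -2.13 ± 0.23 SE, edgeR adjusted p = 2.4e-07). Also lower were F730016J06Rik (9.22-fold), Ccdc141 (7.92-fold), Phlda1 (4.36-fold) and 4930447C04Rik, with a median of 1.84 against 8.31 (4.29-fold).

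**Figure D3:**
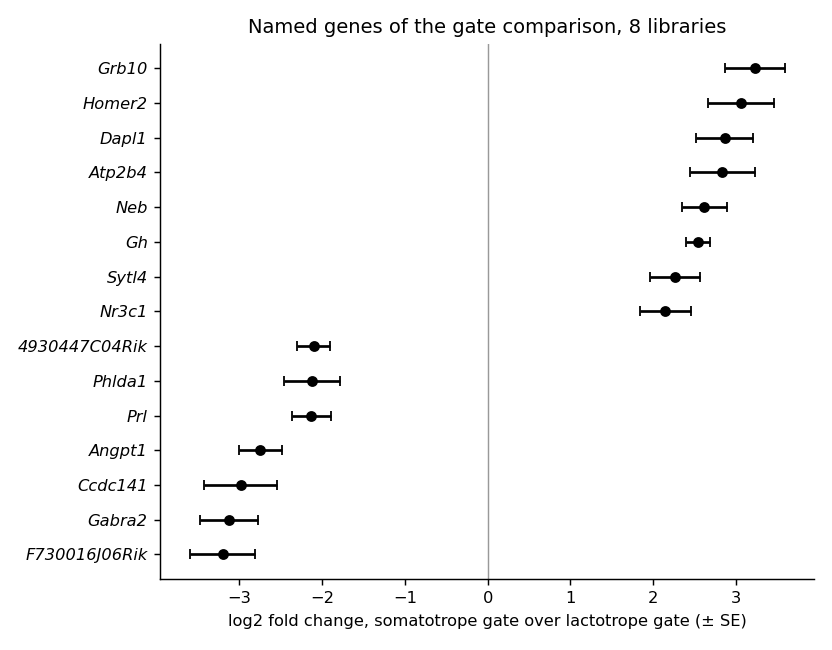
Log2 fold change of the somatotrope gate over the lactotrope gate (points, bars are ± SE from edgeR) for the 8 genes with the largest rise and 7 of the 8 with the largest fall among those called, with a mean of 1 UMI per 10000 or more in either gate and moving the same way in 8 of 8 libraries. Gh lies at 2.54 and Prl at -2.13.

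Among genes of the growth hormone axis, 12 of 25 receptors and signaling genes were measured well enough to test, of which 2 rose, Nr3c1 and Rapgef3, a cyclic AMP sensor (1.81-fold, adjusted p = 0.0137), and 1 fell, the thyroid hormone receptor Thrb (2.54-fold, adjusted p = 0.00399). The median log2 difference of the 12 was -0.17, against -0.02 over all genes tested, and 13.0% of all genes were called. Of 14 ligands and binding proteins 4 were tested and Gh alone passed, and Igfbp5, with a median of 2.17 in members and 1.14 in the lactotrope gate, did not (adjusted p = 0.12).

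Of 24 pituitary transcription factors 9 were tested and 5 passed, beside 13.0% over all genes, with a median log2 difference of -0.49. Rxrg, a retinoid X receptor, rose (4.46-fold, median 0.714 against 0.124, edgeR adjusted p = 0.000551). Of the 4 that fell, Lhx3 (2.34-fold) and Pou1f1 are factors that both lineages need. The 4 remaining factors did not pass.

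The study's own markers of its somatotrope and lactotrope clusters were chosen on these samples, so their direction is not independent evidence. Of 20 somatotrope genes outside the gate, 18 were tested, 16 rose and none fell (edgeR, 0 lower, median log2 1.18), where 13.0% of all genes were called, with Grb10, Homer2, Car10 (7.01-fold) and Bcl2 (5.08-fold) at the top. Car10 was higher in 7 of 8 libraries and Bcl2 in 5 of 8. All 7 lactotrope genes outside the gate fell (median log2 -1.30), beside the same 13.0%, with Sgcz lower by 7.63-fold, 9530059O14Rik by 5.03-fold and Fam46a by 3.40-fold.

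Genes of the secretory granule moved in both directions. Of 24, 16 were tested, 2 rose and 4 fell (median log2 -0.15), beside 13.0% called over all genes. Syt1, a calcium sensor of exocytosis, rose 1.94-fold and Pcsk1n, an inhibitor of prohormone convertase 1, rose 1.75-fold (6.01 against 4.51, higher in 8 of 8). Chgb, the granin chromogranin B, fell 2.40-fold, from a median of 59.0 in the lactotrope gate to 28.5 in members, and Scg2, or secretogranin II, fell 2.0-fold, and both were lower in 8 of 8 libraries. The other 2 that fell were Scg3 and Snap25. Syt1 is also among the study's somatotrope markers and Chgb among its lactotrope markers, so their direction is not independent evidence.

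Of 19 genes of the endoplasmic reticulum's secretory load 18 were tested and 1 passed, Canx (calnexin, 1.43-fold higher, adjusted p = 0.0487), with a list median of 0.23 and beside 13.0% over all genes. Hsp90b1, the most abundant, had a median of 14 in members and 12.5 in the lactotrope gate (adjusted p = 0.802). Among 23 imprinted genes 11 were tested, with a list median log2 of -0.02, against -0.02 over all genes tested. Grb10 and Nnat rose, and Mest (2.79-fold), Nap1l5 (1.94-fold) and Meg3 fell, beside 13.0% called over all genes. Nnat, a small protein of endoplasmic reticulum membranes, was abundant, at a median of 29.0 in members against 13.1, and higher in 6 of 8 libraries (2.45-fold). Grb10 and Nnat are also among the study's somatotrope markers. Of 23 ion channel genes 10 were tested and 3 passed, beside the same 13.0%. Gabrb1 (1.96-fold) and Kcnma1, a calcium-activated potassium channel (1.93-fold), rose, and the sodium channel Scn3a fell (3.17-fold, lower in 8 of 8).

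All 3 metallothionein genes, whose proteins bind zinc, were higher in members, beside 13.0% called over all genes. Mt1 rose 2.99-fold (median 4.32 against 1.27, higher in 8 of 8, edgeR adjusted p = 1.34e-05), Mt2 2.53-fold (higher in 6 of 8) and Mt3 2.41-fold (higher in 7 of 8). Summed, they were lower in members than in the lactotrope gate in 2 of all 10 libraries, lactating replicate 1 (1.75 against 4.52) and female replicate 2 (2.0 against 3.67). Their summed level in members ranged from 1.75 (lactating replicate 1) to 34.5 (male replicate 2) UMIs per 10000 and lay below that of all other barcodes in 4 of 10 libraries.

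Immediate early genes, which are induced within minutes by stimuli and by tissue handling, were lower in members in the test. Of 21 genes 9 were tested, 7 fell, and none rose (edgeR, 0 higher, median log2 -1.20), where 13.0% of all genes were called in either direction. Fos fell 4.69-fold (adjusted p = 0.00086), Nr4a1 3.76-fold, Dusp1 2.86-fold and Ier2 2.48-fold. The study counts Nr4a1 and Nr4a2, which also fell, among the markers of its lactotrope cluster. Ier2 was lower in 8 of 8 libraries, while Fos, Nr4a1 and Dusp1 were each higher in 1 of the 2 10X Genomics libraries and Fos also in 2 and Nr4a1 in 1 of the 6 Drop-seq libraries. Summed over the list, the level in members was below that of the lactotrope gate in 8 of 8 Drop-seq libraries, by a log2 ratio of -2.89 to -0.19, and above it in both 10X Genomics libraries, by 0.16 and 0.21. In the lactotrope gate the sum was 53.6 and 74.7 in replicate 3 of the WT 8-week females and males, and 3.80 to 25.4 in the other libraries.

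**Figure D4:**
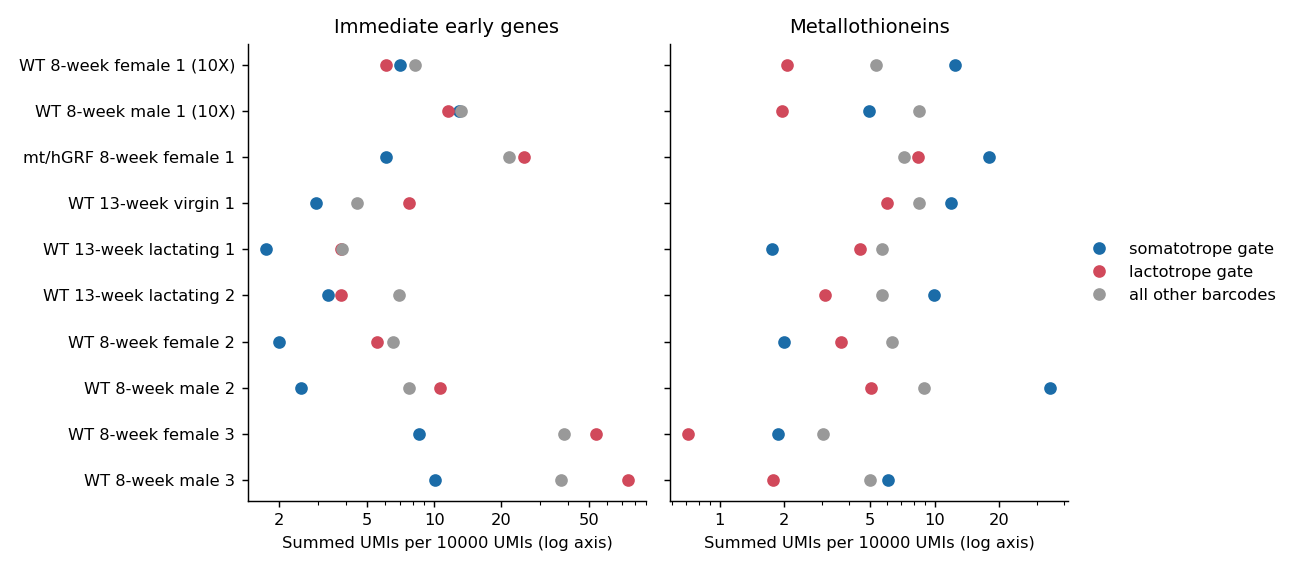
Summed UMIs per 10000 of 21 immediate early genes (left) and 3 metallothioneins (right) on log axes, in members, the lactotrope gate and all other kept barcodes of each library. Immediate early genes in members lie below the lactotrope gate in all 8 Drop-seq libraries and just above it in the 2 10X Genomics libraries.

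RNA of other cell types also differed between the gates. The 4 globin genes tested were lower in members (Hba-a1 by 3.26-fold, Hbb-bs by 2.13-fold), beside 13.0% called over all genes. The summed red blood cell list was 1.73 to 115 in members and 2.14 to 468 in the lactotrope gate. Hba-a1 and Hba-a2 are near-identical copies whose reads the counting could split. Col1a2 of the stroma list was lower by 1.67-fold (list sums of 1.52 to 5.68 and 1.32 to 14.8). Tshb, the thyrotropin subunit, was higher by 2.11-fold, at a median of 0.563 against 0.311 and in 6 of 8 libraries (adjusted p = 0.0409). The 7 stem and supporting cell markers summed to a median of 1.66 (0 to 10.0) in members and 0.514 (0 to 3.21) in the lactotrope gate over all 10 libraries. The part of these cells in the gate comparison was not tested.

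To ask whether the sexes differed in the size of the gate, its share of kept barcodes was compared in the 6 WT 8-week libraries. The male share exceeded the female share in each pair, at 24.6% against 14.4% on the 10X Genomics platform, 1.92% against 0.991% in replicate 2 and 2.68% against 2.45% in replicate 3. The mean was 9.73% ± 12.9 in males and 5.94% ± 7.34 in females (SD, n = 3 each), and the difference was smaller than the spread between libraries, which holds the gap between the platforms (exact permutation test over libraries, two-sided, p = 0.6, where 3 against 3 cannot go below 0.1). Within pairs the male share was higher in 3 of 3, by 1.71, 1.94 and 1.09-fold, and an exact sign-flip permutation test over the pairs gave p = 0.25, the smallest that 3 pairs allow.

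Expression by sex in members was tested in the same 6 libraries with platform as a term. Of 1533 genes 10 (0.652%) passed, 7 higher and 3 lower in males (edgeR quasi-likelihood test). With libraries paired by number the count was 17, and all 10 were among them. It was 4 without female replicate 1 or female replicate 2, and 6 without male replicate 1 or male replicate 3. Leaving out the libraries with under 20 members, female replicate 2 and male replicate 2, gave 29, of which 9 were among the 10.

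The sex-linked genes followed the labels. Xist, the RNA that silences an X chromosome, stood at 122, 35.9 and 70.0 UMIs per 10000 in females and at 0 in all 3 males, and Tsix, its antisense gene, at 2.65, 0.999 and 3.91 against at most 0.0175. The Y-linked Eif2s3y stood at 2.21, 1.5 and 3.79 in males and Ddx3y at 1.66, 1.5 and 2.06, and both were at 0 in all 3 females.

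Prl was the only other gene called whose libraries did not overlap between the sexes. It stood at 139, 160 and 88.5 UMIs per 10000 in female members and 43.8, 48.0 and 36.7 in male members, 2.72-fold lower in males (log2 -1.45 ± 0.40 SE, edgeR adjusted p = 0.0397). A single barcode of female replicate 3 held 252 of its 475 Prl UMIs (53.1%), and the other members of that library had 44.8 per 10000, inside the male range. Without the barcode highest in Prl in each library the levels were 129, 152 and 44.8 in females and 39.0, 38.6 and 27.2 in males. The call held in 6 of 16 alternative fits, among them the paired fit (adjusted p = 2.19e-06), and the adjusted p ran up to 1. It was lost without the 10X Genomics female or male (adjusted p = 1 in each), without female replicate 2 (0.712) or 3 (0.274) and without male replicate 3 (0.232). Macrophages, taken as a gauge of free RNA, differed in the same direction, with mean Prl of 62.5 in females and 11.9 in males. In the lactotrope gate the means were 470 and 453. The part of free RNA in the difference among members was not tested.

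The 5 other genes called had overlapping libraries and are named here after their values were seen. They were Snhg11, Hba-a1, Hbb-bs, Fos and Cwc22, all higher in males in the fit. A single barcode of the 10X Genomics male held 2593 of its 3309 Hba-a1 UMIs (78.4%). For Hbb-bs a single barcode of that library held 2249 of 2564 UMIs (87.7%). Without the highest barcode of each library, Hbb-bs stood at 5.58 UMIs per 10000 in the 10X Genomics male and 4.15 in the female, and Hba-a1 at 12.7 and 4.38. A single barcode of male replicate 2 held all 16 Snhg11 UMIs of that library. Fos stood at 1.54, 0 and 1.62 in males and 0.0577, 0 and 1.12 in females. Cwc22, a splicing factor, stood at 15.3 in male replicate 3, 6.01 in male replicate 2 and under 1 in the 4 other libraries. On the 10X Genomics platform it stood at 0.788 in the male and 0.837 in the female.

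Gh itself did not pass between the sexes. It stood at 2755, 1672 and 1122 in males and 1098, 1788 and 1711 in females (log2 0.32 ± 0.42 SE, edgeR adjusted p = 0.998). The male was higher on the 10X Genomics platform and lower in both Drop-seq pairs. The 16 somatotrope markers of the study that were tested, the 14 secretory granule genes and the 14 genes of the secretory load all failed to pass, with list medians of 0.12, 0.38 and 0.07 on the log2 scale and 0.01 over all genes.

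The mt/hGRF library was compared with the WT 8-week female Drop-seq libraries in a fit of all 8 Drop-seq libraries. The single transgenic library was thus taken to vary like the groups with 2. The limit on mitochondrial share removed 1769 of 4566 barcodes from the mt/hGRF library, against 187 of 1165 and 186 of 1668 from WT female replicates 2 and 3. The part of this loss in the differences was not tested. In simulated counts the fit recovered 7 of 100 genes changed 4-fold, so a gene that did not pass is not shown to be unchanged. Ghrh, the mouse gene whose human counterpart the transgene carries, checked the label. It had 50 UMIs in 8 of the 49 mt/hGRF members, 4.45 per 10000, and none in the members of the 9 other libraries. It stood at 0.786 in all other barcodes of the mt/hGRF library and 0.366 in its macrophages. Ghrh did not pass over all genes (edgeR adjusted p = 0.0609), and whether these reads came from the transgene was not tested.

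Of 2453 genes 1 passed (0.0408%), Mt1. It stood at 13.6 UMIs per 10000 in the mt/hGRF members and at 0.999 and 1.49 in the WT females, 13.1-fold higher (log2 3.71 ± 0.82 SE, edgeR adjusted p = 0.0156). The call held in 9 of 16 alternatives (adjusted p 0.00212 to 0.969) and was lost without either WT female library, at 0.328 without replicate 2 and 0.309 without replicate 3. The WT female levels rested on 1 Mt1 UMI in 1 of 8 members (replicate 2) and 8 UMIs in 5 of 30 members (replicate 3). Mt1 stood at 4.96 in virgin members, 1.31 and 4.52 in lactating members and 4.12 in those of male replicate 3. Members of male replicate 2 held 40 Mt1 UMIs in 8 of 16 barcodes, 20.02 per 10000, of which 1 barcode held 26. Without the highest barcode of each library the level was 7.98 in male replicate 2 and 11.4 in the mt/hGRF members. All other barcodes of the mt/hGRF library stood at 4.96, against a mean of 2.27 in the WT females, and its macrophages at 6.67 against 2.63.

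Gh stood at 2293 in the mt/hGRF members and 1788 and 1711 in the WT females, and the difference did not pass (log2 0.95 ± 0.73 SE, edgeR adjusted p = 0.803). With the 3 female libraries alone in the fit the log2 difference in Gh was 0.71. The fits scale libraries by TMM, and the levels per 10000 do not. The median mt/hGRF member held 814 Gh UMIs per 10000, against 1620 and 835 in WT female replicates 2 and 3. Without the barcode with the most Gh UMIs in each library, Gh stood at 2085 in mt/hGRF and 1987 and 1308 in WT members. Prl stood at 60.4 against 160 and 88.5. Without the barcode highest in Prl in each library it stood at 47.2 against 152 and 44.8, so mt/hGRF members were not below both WT libraries. Chgb (40.4 against 3.99 and 13.8) and Resp18 (20 against 4.99 and 3.35), of the secretory granule list, had adjusted p-values of 0.0794 and 0.0676. The 14 tested somatotrope markers of the study had a median of -0.79 on the log2 scale, and none passed. None of the 14 granule genes or the 16 secretory load genes tested passed (edgeR, 0 of each), with list medians of 1.29 and 1.18 on the log2 scale against 0.08 over all genes. At an unadjusted p under 0.05, 225 genes passed.

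Lactation was compared in the same fit, with 2 lactating libraries against 1 virgin library. In simulated counts this contrast recovered 0 of 100 genes changed 4-fold, so a gene that did not pass is not shown to be unchanged. Of 2453 genes 3 (0.122%) passed, all lower in lactating members, and each was lost without lactating replicate 1 (0 called, 36 at an unadjusted p under 0.05). Gh stood at 1487 and 2882 in lactating and 2452 in virgin members and Prl at 380 and 636 against 443, and neither passed (edgeR adjusted p = 1 for both). For Prl, a single barcode of lactating replicate 2 held 2551 of 4782 UMIs (53.3%). Without the barcode highest in Prl in each library the level was 323.8 and 326.2 in lactating and 329.2 in virgin members.

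The 3 genes called were Cwc22, Mia and B2m. Cwc22 stood at 0.437 and 0.133 in lactating members and 6.23 in virgin members (log2 -4.53 ± 0.96 SE, edgeR adjusted p = 0.00394). All other barcodes held the same order, with means of 0.182 in the lactating libraries and 10.53 in the virgin library, and so did macrophages, at 0.0724 and 2.97. Mia, a small secreted protein, stood at 0 and 2.13 against 16.0 (log2 -3.63 ± 0.78 SE, adjusted p = 0.00394), and B2m, the light chain of MHC class I, at 0.437 and 2.53 against 15.5 (log2 -3.19 ± 0.77 SE, adjusted p = 0.0251). All other barcodes had the same order for these genes, with means of 0.884 in the lactating and 2.62 in the virgin library for Mia and 4.87 and 12.6 for B2m, as did macrophages for B2m, at 85.9 and 112.5, and not for Mia, at 0.253 and 0.0942.

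A few virgin barcodes held most of this signal. Of the 40 virgin members, 4 with at least 3 Mia UMIs held 124 of the 126 Mia UMIs, 102 of the 122 B2m UMIs and all 51 UMIs of the 7 stem and supporting cell markers. Their median depth was 5012.5 UMIs, against 950 over all virgin members, and they held 365 to 2884 Gh UMIs per 10000. In the 10X Genomics female 7 of 233 members were of this kind and held 308 Mia UMIs and 58 of 69 stem marker UMIs, and in the male 8 of 396 did so with 56 of 76. In male replicate 2, which had the highest stem marker sum, the 2 members of this kind held 28 of 28 Mia UMIs and 5 of 20 stem marker UMIs. The threshold of 3 UMIs was set after the values were seen, and whether these barcodes hold more than 1 cell was not tested.

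**Figure D5:**
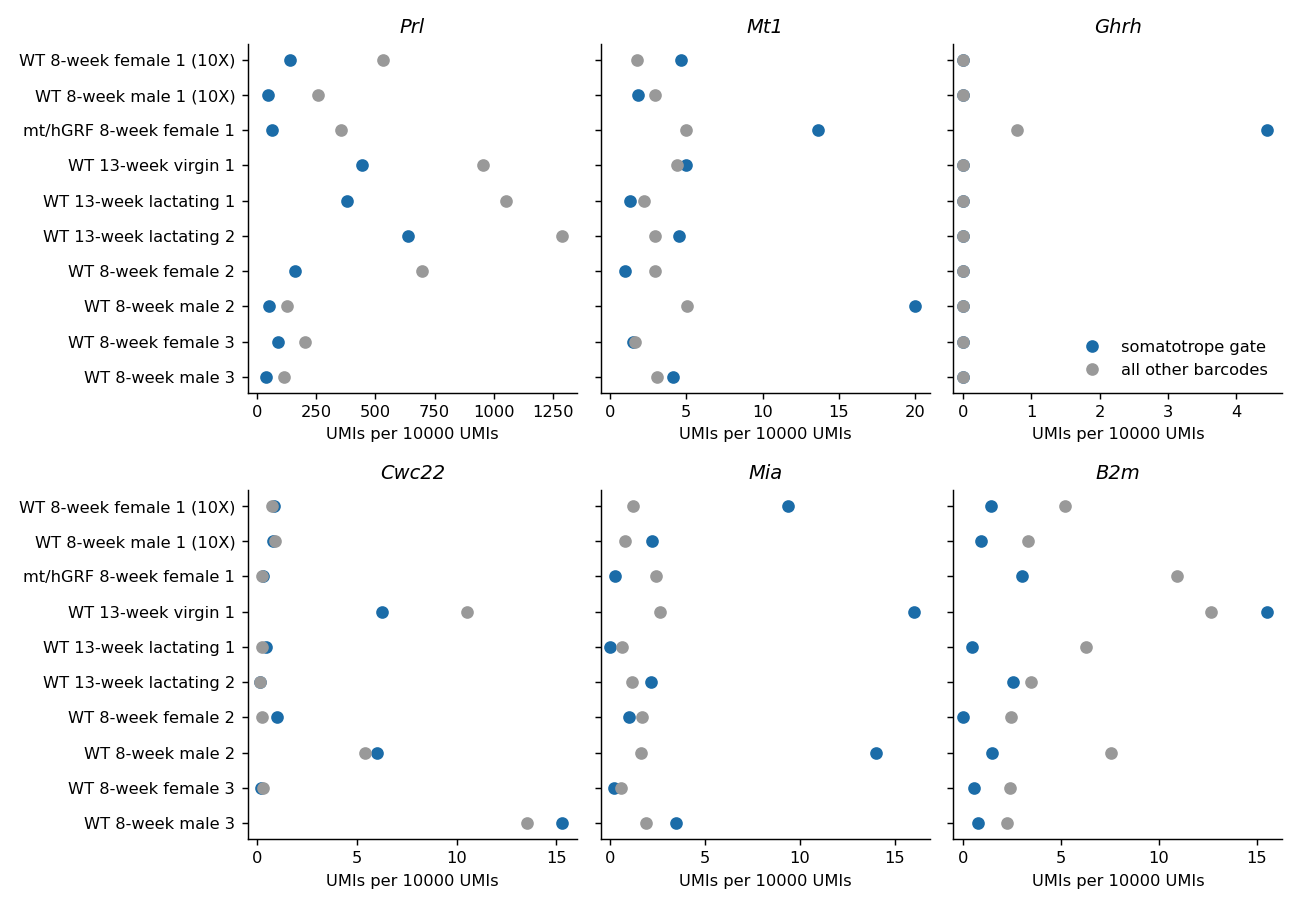
UMIs per 10000 of 6 genes named in the comparisons of sex, mt/hGRF and lactation, in members (blue) and all other kept barcodes (grey) of each library, on linear axes. Ghrh reaches 4.45 in the mt/hGRF members, 0 in the members of the other libraries and at most 0.00377 in their other barcodes, and Cwc22 in members follows the other barcodes of the same library.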

How the data were processed

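The deposited tables hold raw UMI counts per gene symbol and barcode, as the authors made them. For Drop-seq, per the authors, exonic reads on the annotated strand of mm10 (Gencode vM13) were counted after unique mapping and merging of near-identical UMIs. The submitters' processing notes name STAR 2.5.2a and Cell Ranger, whose version is not given in the sources used here. Barcodes were kept with at least 300 UMIs and 100 to 4000 genes (Drop-seq) or more than 200 and fewer than 3000 genes (10X Genomics), a mitochondrial share under 0.1 and a ribosomal pseudogene share under 0.01. No doublet caller was run. Leaving out the top 5% of members by UMIs was an alternative.

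UMIs were summed per library and gate and tested with edgeR 4.0.16 (TMM, filterByExpr, quasi-likelihood, two-sided, Benjamini-Hochberg). DESeq2 1.42.0 was an alternative. Scripts were tested on simulated counts, with 100 genes changed 2-fold and 100 changed 4-fold in each comparison. Recovered at 2-fold and 4-fold were 76 and 100 in the gate fit and 19 and 93 in the sex fit. The mt/hGRF fit recovered 0 and 7, and the lactation fit 0 and 0. In those last comparisons a gene that did not pass is not shown to be unchanged. Log2 ratios of single genes carried 0.5 UMIs as pseudocount. The members, markers and gene lists were chosen with earlier results of these data known. Named genes are the gate and exclusion genes, Gh, Prl and Pomc, 2 to 4 members per list, and the 8 largest changes each way among genes called whose libraries did not overlap (gate comparison: same direction in all libraries) with a mean of 1 UMI per 10000 or more in either group. The female and male libraries of a number correlated in their deviations from the mean of their sex (0.725, 0.184 and 0.506 over 1533 genes), while unmatched libraries reached 0.219 (female 2 with male 3). The first pair shares the 10X Genomics platform and no label number, and what the label numbers of the others mark is not stated. The paired fit is given beside the sex result. Results for 2 genes that the rule names are not reported here.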

Additional observations from a re-analysis of the deposited data

Results flagged for a closer look

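As a list sum, immediate early genes went opposite ways on the platforms. Among the 4 genes named in the report, Ier2 was lower in members in both 10X Genomics libraries and in all 6 tested Drop-seq libraries. The summed level in the somatotrope gate over that in the lactotrope gate had a median log2 ratio of 0.19 in the 2 10X Genomics libraries, both above 0, and of -1.77 in the 8 Drop-seq libraries, all below 0. The difference between the platforms was not tested, and the platforms also differ in the markers by which members entered.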

How the results depend on the processing

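In the gate comparison 449 genes were called. The count was 288 with DESeq2, 58 of 505 tested when barcodes were thinned to 300 UMIs, 7 with at least 3 gate genes (2 libraries left) and 157 with the Drop-seq libraries only. When 1 library was left out, 263 to 421 of the 449 were called again. For sex, against 10, it was 5 with DESeq2, 1 of 83 tested when thinned, 5 with at least 3 gate genes, 5 without the top 5% of members by UMIs, 4 with the Drop-seq libraries only, 17 with the replicate block, which pairs libraries of a number, 29 without libraries of under 20 members (chosen after seeing the data) and 4 to 12 when 1 library was left out. Of these last, 4 came without female replicate 1 or 2.

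For mt/hGRF, against 1, the count was 0 with DESeq2 (73 genes at an unadjusted p under 0.05), 5 with RLE size factors, 0 with no filter (512 unadjusted), 0 without the top 5% (76 unadjusted), 33 with the female libraries alone, 0 without libraries of under 20 members (168 unadjusted, chosen after seeing the data) and 0 to 2 when 1 library was left out. For lactation, against 3, it was 0 with DESeq2 (13 unadjusted), 8 with RLE size factors, which moved the median of all genes from 0.01 to -0.10, 0 with no filter (209 unadjusted), 0 when thinned (4 unadjusted), 5 with the 13-week libraries alone and 0 to 4 when 1 library was left out. At least 3 gate genes could not be fitted for these comparisons, since no group kept 2 libraries, and the mt/hGRF and virgin libraries cannot be left out of their own contrasts.

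The male minus female share of the gate, 3.79 percentage points, ran from -3.64 (without male replicate 1) to 8.01 when 1 library was left out, and the replicate block, added after seeing the data, left it at 3.79 with an exact sign-flip permutation p = 0.25. Left out of the gate, Ghrhr had a mean log2 ratio of 1.78 against the lactotrope gate and 0.79 with the exclusion genes not applied, past the threshold in each, and Pappa2 one of 1.93 against the lactotrope gate and -0.050 when thinned.

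Among named genes, signs turned only for genes not called. Pomc between the gates (log2 -0.03) was 0.0051 with DESeq2, 0.0029 with RLE, 0.17 thinned, 0.24 with 3 gate genes, 0.055 without the top 5% and -0.064 to 0.029 with 1 library left out. By sex, Gh (0.32) was -0.21 by Drop-seq only and -0.14 to 0.75 with 1 library left out, below 0 without the 10X Genomics female or male, and Pomc (-0.16) was 0.28 by Drop-seq only, 0.016 without the top 5% and -0.45 to 0.30 with 1 library left out. For mt/hGRF, Gh (0.95) was -0.18 thinned, Prl (-0.38) was 0.48 thinned and 0.014 without the top 5%, and Pomc (-0.76) was -1.31 to 0.060 with 1 library left out. For lactation, Gh (-0.10) was -0.89 to 0.44 and Prl (0.25) -0.39 to 0.73 with 1 library left out, Prl was -0.051 thinned and -0.54 without the top 5%, and Pomc (0.36) was -0.092 without the top 5%. The causes were not tested.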
